A study of Homo sapiens with 8 samples.

Results

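The 10 genes described here, CXCR5, CXCR4, CCR7, CCR6, S1PR1, S1PR2, P2RY8, GPR183, GNA13 and ARHGEF1, encode the chemokine and lipid receptors, and the G protein signalling behind them, that place B cells in follicles and germinal centers. They were chosen by this role from 20149 protein coding genes of the GENCODE annotation. FLI1, a transcription factor of the ETS family, was mapped by ChIP-Seq with a rabbit polyclonal antibody in OCI-Ly1 (written OCILy1 in the labels) and VAL, established cell lines derived from diffuse large B-cell lymphoma (DLBCL) of the germinal center B-cell (GCB) type. The series holds 2 FLI1 libraries per line beside 4 samples of input DNA, which were not analysed here. No agent was added and no genotype was varied, and the labels do not say whether the replicates of a line came from separate cultures. Peak lists hold no expression values, so the labelled cell type could not be compared with its markers.

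A B cell finds its place by reading gradients. CXCR5 draws it into the follicle, CCR7 and GPR183 (also called EBI2) draw it to the T-cell border and the outer follicle, CXCR4 draws it into the dark zone of the germinal center, and S1PR1 lets it leave through the lymph. S1PR2 and P2RY8 act the other way and hold the germinal center B cell in the middle of the follicle, through the G protein alpha subunit encoded by GNA13 and the signalling protein encoded by ARHGEF1, and inactivating mutations of these genes are known from GCB lymphomas.

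Each peak of a list has a fold enrichment over the local background, a -log10 p and a -log10 q from the authors' peak caller. A peak passed where this -log10 q reached 3, the same numerical level as the false discovery rate of 0.001 in the methods. The methods state that rate for peaks called with HOMER, so a passing peak here is not the study's own call. A promoter peak is one centred within 3 kb of any annotated transcription start site (TSS) of the gene. The caller's values rank the peaks inside 1 library and are not amounts to compare between libraries. The reads at a summit were worked back from its fold and -log10 p, and their 95% Poisson intervals cover counting error only.

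The list of OCI-Ly1 replicate 1 held 37 intervals, 33 of them longer than 1 Mb, and was left out, so OCI-Ly1 has 1 library here and no replicate error. The other 3 libraries are named OCI-Ly1 rep2, VAL rep1 and VAL rep2, by cell line and replicate number. OCI-Ly1 rep2 listed 1107379 peaks, VAL rep1 listed 237178 and VAL rep2 listed 986629, of which 5354, 973 and 6474 passed. The least number of reads with which a peak passed was 6 in OCI-Ly1 rep2, 8 in VAL rep1 and 6 in VAL rep2. The reads needed depend on the local background, so a gene without a passing peak is one where none was detectable in these lists, and not one shown to lack binding.

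The sequences under the peaks on which the results turn are shown first, as 30 bases of the plus strand of GRCh37 around the nearest ETS letters. ETS factors bind a GGAA core, and the FLI1 core sought here was CCGGAAA or CCGGAAG, on either strand; each of these contains GGAA. The capitals mark the FLI1 core where it lay within 100 bp of the summit and otherwise GGAA within 50 bp, and a core on the minus strand is printed as its reverse complement.
ARHGEF1 promoter, passing in VAL rep2, chr19:42387225-42387254: ggcgggggcctCCGGAAAaacgccccgact
S1PR2 promoter, passing in VAL rep2, chr19:10342059-10342088: ctctcctccccTTTCCGGcggcggctgcaa
CXCR4 promoter, passing in VAL rep2, chr2:136874916-136874945: cggcgggaaggttTTCCccctcaaacccaa
GNA13 upstream, passing in VAL rep2, chr17:63054255-63054284: tttagtttcaagtGGAAaaagccactttgg
ARHGEF1 intron, passing in OCI-Ly1 rep2, chr19:42391649-42391678: tggggctggtgggTTCCaaggcaacatcct
CCR6 intron, listed but not passing in OCI-Ly1 rep2 and VAL rep1, chr6:167532516-167532545: ttgctgccagcCTTCCGGtcctgcagccac
Site beyond the end of GNA13, passing in all 3 libraries, chr17:62962179-62962208: gacagcgacgcgtTTCCtgcccgggaaggg

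In the promoters of these genes, passing FLI1 peaks were seen in VAL rep2 only. ARHGEF1, S1PR2, CXCR4 and GNA13 each had 1, and the other 6 genes had none in any library. In OCI-Ly1 rep2, 0 of 10 genes passed (exact binomial 95% interval up to 30.8%), against 19.0% of all protein coding genes. In VAL rep1, 0 of 10 passed, against 3.14%. In VAL rep2, 4 of 10 passed (40.0%, interval 12.2 to 73.8%), against 20.8% of all genes. Over the 3 libraries together, 4 of 10 genes passed at least once, against 27.4%, and 0 of 10 passed in both lines, against 12.6%. The intervals cover counting only. Since the genes were chosen with earlier results of these data known, neither enrichment nor depletion can be read from these counts. A passing promoter peak in VAL rep2 and in no other library, which is what these 4 genes had, was found for 8.13% of all protein coding genes. This split was defined after the counts were known, so the interval does not apply to it and no enrichment can be read from it. VAL rep2 decides the count, since without it no gene of the set has a passing promoter peak.

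**Figure D1:**
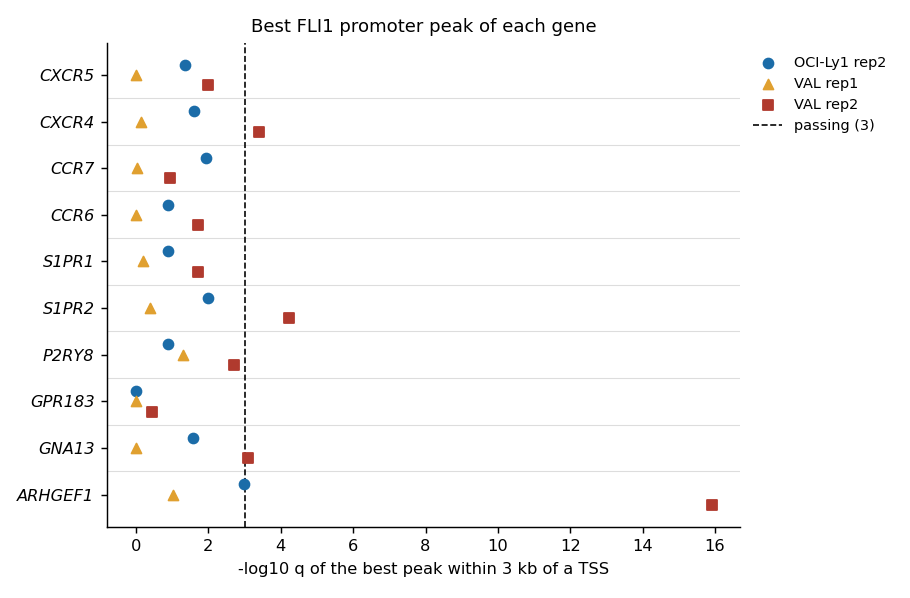
The best FLI1 promoter peak of each gene, as the -log10 q of the peak caller (horizontal axis), in OCI-Ly1 rep2 (circles), VAL rep1 (triangles) and VAL rep2 (squares); genes with no listed promoter peak are drawn at 0, and the dashed line marks the passing value of 3. The 4 points right of the line are all squares, from GNA13 at 3.1 to ARHGEF1 at 15.9, and the circle of ARHGEF1 sits on the line at 2.99.

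Values just below the passing value were present too. Between a -log10 q of 2 and 3 lay the best promoter peaks of ARHGEF1 (2.99) and S1PR2 (2.0, just over 2 unrounded) in OCI-Ly1 rep2, and that of P2RY8 (2.7) in VAL rep2. The median -log10 q of the 10 genes was 1.46 in OCI-Ly1 rep2, 0.0932 in VAL rep1 and 2.35 in VAL rep2. Over all protein coding genes the medians were 1.22, 0.183 and 1.63. With promoters of 1 kb the median of the 10 genes in VAL rep2 became 0.952. The medians over all protein coding genes are for 3 kb and cannot be set beside it.

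The chemokine receptors come first. CXCR5 encodes the receptor for CXCL13, the chemokine of the follicle. Its best promoter peak reached a -log10 q of 1.36 with 4 reads in OCI-Ly1 rep2, 0.0 with 5 reads in VAL rep1 and 2.0 with 5 reads in VAL rep2, where the unrounded value was just under 2. None passed. The summits of OCI-Ly1 rep2 and VAL rep2 lay 90 bp apart, 1531 and 1621 bp downstream of the single TSS, in an intron. Inside the gene and beyond 3 kb of the TSS, the best listed peaks had a -log10 q of 2.18 in OCI-Ly1 rep2 and 2.13 in VAL rep2. A passing peak lay outside the promoter window in VAL rep2 (chr11:118747474-118748088, -log10 q 3.39, 7 reads, interval 2.81 to 14.4), centred 6820 bp upstream of CXCR5, which was also the gene with the closest TSS.

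CXCR4 encodes the receptor for CXCL12. Its best promoter peak had a -log10 q of 1.61 with 4 reads in OCI-Ly1 rep2, 0.146 with 8 reads in VAL rep1 and 3.4 with 6 reads (interval 2.2 to 13.1) in VAL rep2. The order of the reads was not the order of the -log10 q, since the 8 reads of VAL rep1 stood on a local background of 3.01 and the 6 reads of VAL rep2 on 0.34. The passing peak (chr2:136874080-136875503, fold 5.22) had its summit in a 5' UTR, 379 bp downstream of a TSS. GGAA on the minus strand began 1 bp from that summit, as the CXCR4 sequence above shows, and no FLI1 core lay anywhere in the promoter windows of the gene. No listed peak of OCI-Ly1 rep2 overlapped it, and the summit of the best overlapping peak of VAL rep1 lay 508 bp away.

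CCR7 and CCR6, which bind the chemokines of the T-cell zone and CCL20, had no passing peak. CCR7 reached a -log10 q of 1.94 with 5 reads in OCI-Ly1 rep2, 0.0404 with 5 reads in VAL rep1 and 0.952 with 3 reads in VAL rep2. The summit lay 3 bp from a TSS, in the 5' UTR, in OCI-Ly1 rep2. The other libraries had theirs 1444 and 2201 bp downstream of a TSS, in an intron. CCR6 reached 0.875 with 4 reads in OCI-Ly1 rep2, 0.0 with 5 reads in VAL rep1 and 1.71 with 4 reads in VAL rep2. The best summits of CCR6 in OCI-Ly1 rep2 and VAL rep1 lay 11 and 25 bp from the FLI1 core printed above, although neither peak passed. The best peak of VAL rep2 was another site, 6355 bp from the summit of OCI-Ly1 rep2.

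**Figure D2:**
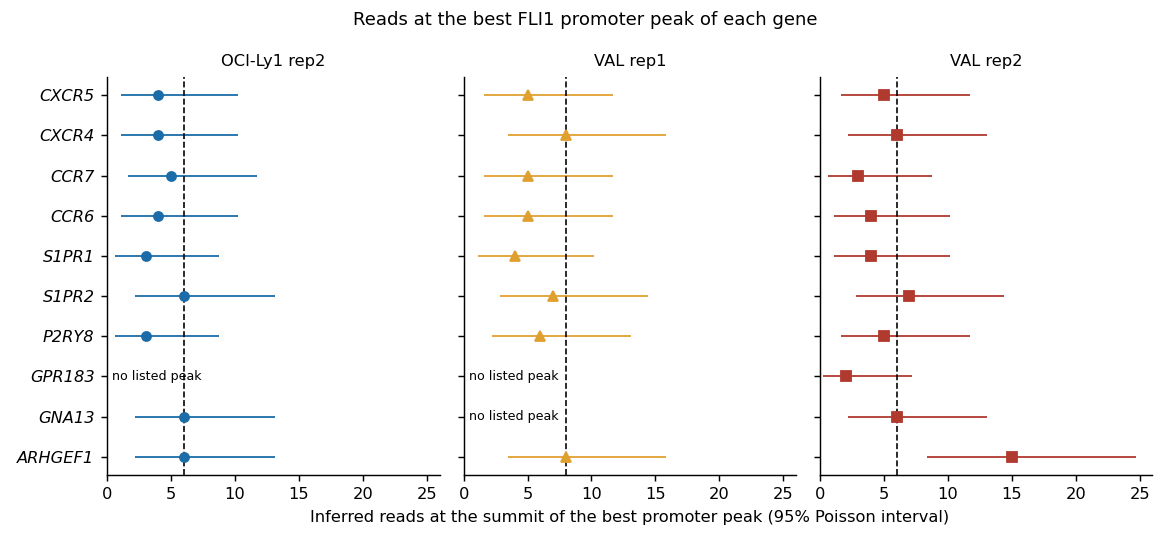
Inferred reads at the summit of the best promoter peak of each gene (horizontal axis), with exact 95% Poisson intervals as bars, 1 panel per library; the dashed lines mark the least reads with which any peak of that library passed (6, 8 and 6). Most points sit on or left of the line with intervals that cross it, and ARHGEF1 in VAL rep2, with 15 reads and an interval of 8.4 to 24.7, is the only point whose whole interval lies right of the line.

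The receptors for lipids and related ligands followed. S1PR1 encodes the sphingosine 1-phosphate receptor used for exit from lymphoid tissue, and its best promoter peak reached a -log10 q of 0.873 with 3 reads in OCI-Ly1 rep2, 0.183 with 4 reads in VAL rep1 and 1.71 with 4 reads in VAL rep2. None of them passed, and the summits of OCI-Ly1 rep2 and VAL rep2 lay 1732 bp apart. GPR183, the receptor for oxysterols, had the lowest values of the set. It had no listed promoter peak in OCI-Ly1 rep2 or VAL rep1, and a -log10 q of 0.435 with 2 reads in VAL rep2. The best peak inside it outside the promoter window reached 1.61 in OCI-Ly1 rep2 and 0.952 in VAL rep2.

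S1PR2 encodes the sphingosine 1-phosphate receptor that inhibits migration in germinal center B cells. The best promoter peak reached a -log10 q of 2.0 with 6 reads in OCI-Ly1 rep2, 0.382 with 7 reads in VAL rep1 and 4.22 with 7 reads (interval 2.81 to 14.4) in VAL rep2. The passing peak (chr19:10341444-10342181, fold 5.77) had its summit 7 bp upstream of the TSS of S1PR2, and the FLI1 core printed above lay 56 bp from that summit. In OCI-Ly1 rep2 a listed peak with a -log10 q of 1.53 and 4 reads overlapped it, with its summit 78 bp away and within 50 bp of the same core, while VAL rep1 listed none there. The best OCI-Ly1 peak of the gene was another one, 2722 bp from the passing summit. The TSS closest to the centre of the passing peak belongs to DNMT1, at 137 bp against 195 bp for S1PR2, so the peak cannot be assigned to 1 of these overlapping genes by position.

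P2RY8 encodes the receptor for a glutathione conjugate and lies in the pseudoautosomal region, which the lists hold as an X and a Y copy of equal length. The best promoter peaks of the X copy had a -log10 q of 0.873, 0.0 and 0.952 in OCI-Ly1 rep2, VAL rep1 and VAL rep2. Those of the Y copy had 0.873, 1.3 and 2.7. Reads of this region cannot be told apart by copy, and the reads of 1 site may be divided between both, so the values of P2RY8 are uncertain. In VAL rep2 the best peaks of both copies lay over each other once the Y positions were shifted to X (chrX:1653768-1654419 and chrX:1653865-1654482). Inside the gene the best peaks reached 2.89 on X and 2.62 on Y in OCI-Ly1 rep2, both short of the passing value.

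The signalling genes behind S1PR2 and P2RY8 come last. GNA13 encodes the alpha subunit through which both receptors act. Its best promoter peak had a -log10 q of 1.57 with 6 reads in OCI-Ly1 rep2 and 3.1 with 6 reads (interval 2.2 to 13.1) in VAL rep2, and VAL rep1 listed none. The passing peak (chr17:63054093-63054434, fold 5.06) had its summit 1390 bp upstream of the TSS, 20 bp from the GGAA shown above, and the promoter windows of the gene held no FLI1 core. No listed peak of another library overlapped it, and the OCI-Ly1 peak lay 1573 bp away in a coding exon. With promoters of 1 kb, the best value of GNA13 in VAL rep2 became 0.952.

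ARHGEF1 encodes a signalling protein that acts downstream of that subunit. Its best promoter peak had a -log10 q of 2.99 with 6 reads (interval 2.2 to 13.1) in OCI-Ly1 rep2, 1.01 with 8 reads in VAL rep1 and 15.9 with 15 reads (interval 8.4 to 24.7) in VAL rep2. It had the highest value of the 10 genes in OCI-Ly1 rep2 and in VAL rep2. The passing peak (chr19:42387108-42387694, fold 11.8 on a background of 0.36 reads) had its summit in a 5' UTR, 8 bp downstream of a TSS. The core CCGGAAA lay 17 bp from that summit and overlapped the annotated start of the gene. The OCI-Ly1 peak covered the same place (chr19:42387039-42387670), with its summit 81 bp from that of VAL and 58 bp from the core, and at an unrounded value just under 3 it was the closest to passing of the best promoter peaks that did not pass. VAL rep1 listed no peak there, and its best peak lay 13359 bp away, 1166 bp from the start of another transcript.

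ARHGEF1 also had a passing peak inside the gene in OCI-Ly1 rep2 (chr19:42391382-42392167, intron, -log10 q 5.78, 9 reads, interval 4.12 to 17.1). It was centred 3259 bp from the nearest TSS and so lay just outside the promoter window. In VAL rep2 the overlapping peak had a -log10 q of 2.23 with 5 reads, and its summit was 446 bp away. Another promoter peak of ARHGEF1 was listed without passing at nearly the same place in both libraries, with 1.94 in OCI-Ly1 rep2 (chr19:42387918-42389007) and 2.3 in VAL rep2 (chr19:42387916-42388688). ARHGEF1 has 26 annotated TSS and promoter windows of 39027 bp, against a median of 5 TSS and 12072 bp per protein coding gene, which gives it more room for a promoter peak.

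**Figure D3:**
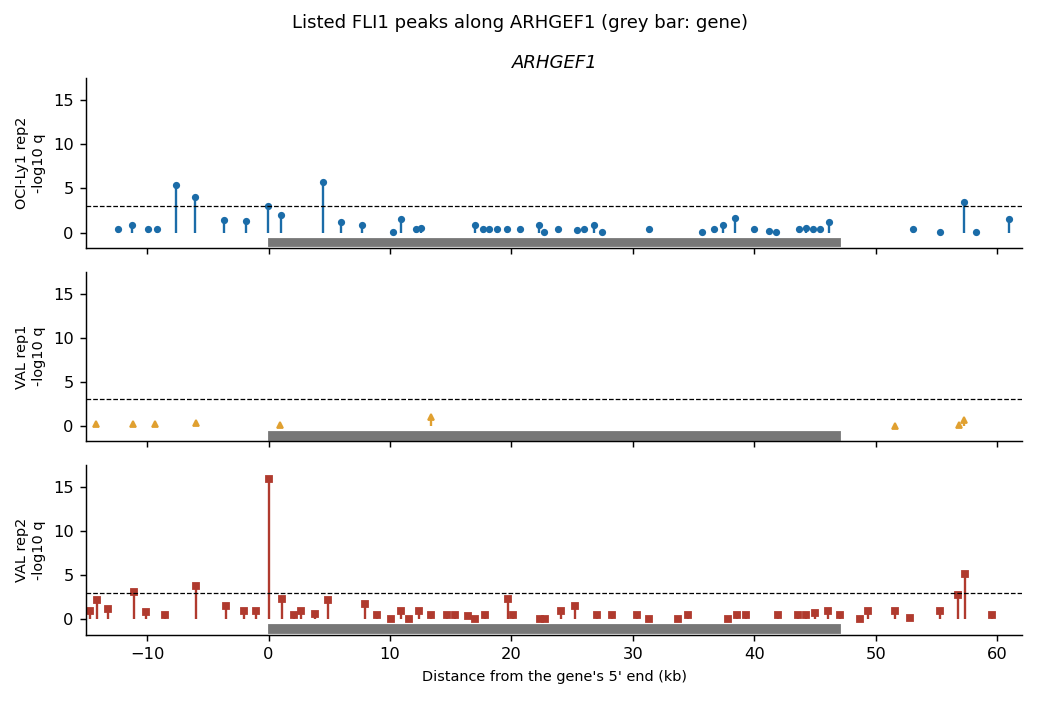
All listed FLI1 peaks along ARHGEF1 by distance of the summit from the 5' end of the gene in kb (horizontal axis) and -log10 q (vertical axis), 1 panel per library, with the gene as a grey bar and the passing value of 3 as a dashed line. The tallest point is the promoter peak of VAL rep2 at 15.9, the OCI-Ly1 peak at the same place reaches 2.99, and the intronic OCI-Ly1 peak at 5.78 stands beside it.

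Passing peaks centred inside the genes, between annotated start and end, were seen in ARHGEF1 for OCI-Ly1 rep2 and in CXCR4, S1PR2 and ARHGEF1 for VAL rep2. The last 3 are the promoter peaks already described, and the S1PR2 peak had its summit just upstream of the gene. At least 1 such peak was found in 3 of 10 genes (exact binomial 95% interval 6.67 to 65.2%), against 26.5% of protein coding genes. The shares of all genes were 15.9% in OCI-Ly1 rep2, 2.6% in VAL rep1 and 18.8% in VAL rep2. CXCR5, CCR7, CCR6, S1PR1, P2RY8 and GPR183 had no passing peak at the promoter or inside the gene. Without VAL rep2, only ARHGEF1 had one inside.

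**Figure D4:**
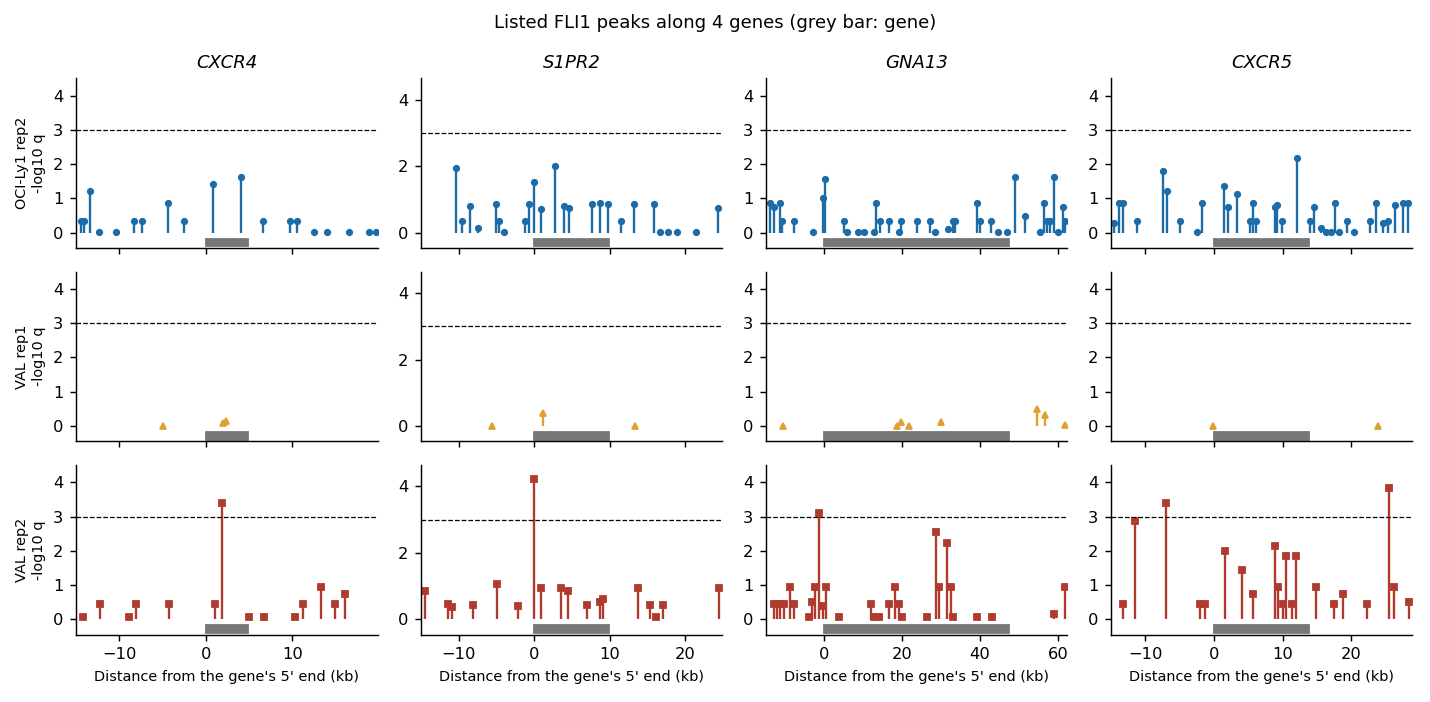
Listed FLI1 peaks along CXCR4, S1PR2, GNA13 and CXCR5 by distance of the summit from the 5' end of the gene in kb (horizontal axes) and -log10 q (vertical axes), with 1 row of panels per library, the gene as a grey bar and the passing value of 3 as a dashed line. Only the panels of VAL rep2 hold points over the line, at 3.4 for CXCR4, 4.22 for S1PR2, 3.1 for GNA13, and 3.39 and 3.82 outside CXCR5.

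The FLI1 core lay within 50 bp of the best promoter summit at 1 gene per library, CCR6 in OCI-Ly1 rep2 and VAL rep1 and ARHGEF1 in VAL rep2. Of all protein coding genes with a listed promoter peak, 14.9%, 9.93% and 14.1% had the core there, and of those whose best peak passed, 52.2%, 63.7% and 45.8%. Of the 4 passing promoter peaks of the set, 1 had it. The shorter GGAA was near the best summit at 7 of 9 genes with a listed peak in OCI-Ly1 rep2, 4 of 8 in VAL rep1 and 5 of 10 in VAL rep2, against 65.9%, 58.8% and 64.8% of all genes. The promoter windows held 11 FLI1 cores at 5 of the genes, 7 of them in ARHGEF1 and 1 each in CCR7, CCR6, S1PR1 and S1PR2, and 68.4% of all protein coding genes have at least 1. At 7 of the 11 cores no library listed a summit within 50 bp. A match of these letters is a description of the sequence and not of binding.

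The best promoter summits of OCI-Ly1 rep2 and VAL rep2 lay within 100 bp of each other at 2 of 9 genes with a listed peak in both (22.2%, exact binomial 95% interval 2.81 to 60.0%), CXCR5 and ARHGEF1. Over all such protein coding genes the share was 21.1%, and it was 80.7% where the gene passed in both libraries. Between the VAL replicates it was 0 of 8 genes, against 15.4%. P2RY8 counted as apart between the lines because its best peaks lay on different copies, X in OCI-Ly1 rep2 and Y in VAL rep2. For most of the set, as for most protein coding genes, the best listed peaks of the libraries compared thus lay at different places. Listed peaks of any value covered 25.2% of the promoter windows of the set in OCI-Ly1 rep2, 4.79% in VAL rep1 and 32.0% in VAL rep2.

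Ranked among all 20149 protein coding genes, the set ran from the bottom to near the top. ARHGEF1 stood at the percentile 80.9 in OCI-Ly1 rep2, 87.7 in VAL rep1 and 97.4 in VAL rep2, where 517 genes had a higher value. S1PR2 stood at 70.8, 67.4 and 85.5, and these were the only genes of the set over the median gene in all 3 libraries. Their ranks did not all come from 1 site. The VAL rep1 summit lay 13359 bp from that of VAL rep2 for ARHGEF1 and 1149 bp for S1PR2. The OCI-Ly1 rep2 summit lay 81 bp and 2722 bp from it. With promoters of 1 kb, the -log10 q in VAL rep1 became 0.146 for ARHGEF1 and 0 for S1PR2. GPR183 stood at 0.596, 18.8 and 10.5. The rank of the other genes moved between libraries, as for CCR7 with 69.5, 39.9 and 30.2 and P2RY8 with 34.8, 91.8 and 76.2. P2RY8 was ranked by the better of its X and Y copies, which was the Y copy in VAL rep1 and VAL rep2. The Y copy had a -log10 q of 1.3 and 2.7 there, against 0.0 and 0.952 for the X copy. The median percentile of the set was 53.9, 43.6 and 71.4, and with promoters of 1 kb the last of these became 40.9. The 2 genes nearest to ARHGEF1 over the 3 percentiles were GANC and TMEM87A, each with 82.2, 87.7 and 97.3 and a Euclidean distance of 1.24.

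**Figure D5:**
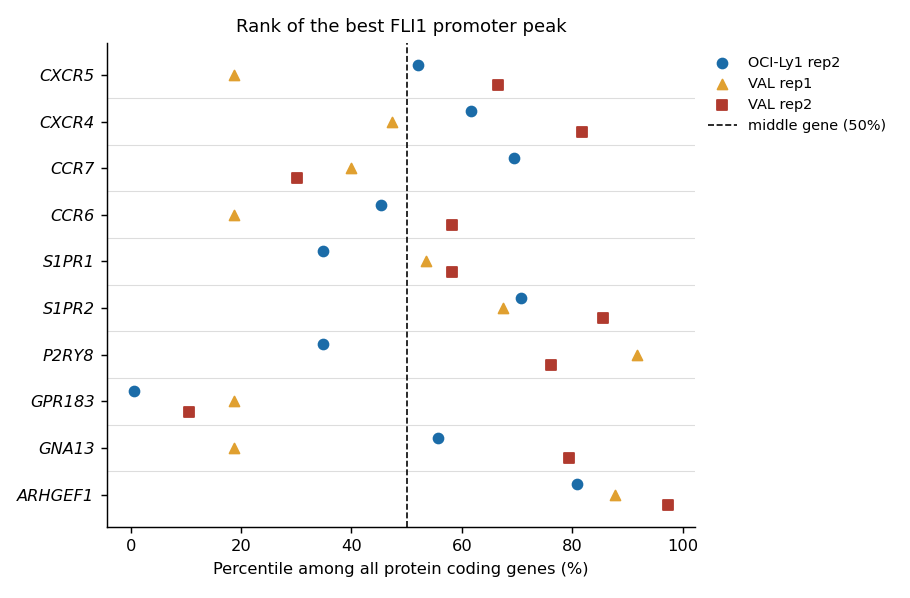
Percentile of the best promoter -log10 q of each gene among all protein coding genes of the same library (horizontal axis, in %), with circles for OCI-Ly1 rep2, triangles for VAL rep1 and squares for VAL rep2, ties given their mean rank; the dashed line marks the middle gene. ARHGEF1 lies between 80.9 and 97.4, GPR183 between 0.596 and 18.8, and most other genes spread over both sides of the line. P2RY8 is ranked by the better of its X and Y copies.

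Within 50 kb of the 10 genes but outside their promoters and bodies, passing peaks were found around CXCR5, S1PR2, GNA13 and ARHGEF1, and none around the other 6. The share of all protein coding genes with such a peak is not given, so this count cannot be read as high or low. Several of the peaks lay at promoters of neighbouring genes, named below. The strongest passing peak away from a protein coding promoter lay beyond the 3' end of GNA13, where all 3 libraries had one. The -log10 q was 32.0 with 26 reads in OCI-Ly1 rep2, 9.38 with 19 reads in VAL rep1 and 23.8 with 22 reads in VAL rep2. The 3 summits fell within 53 bp, at least 43240 bp beyond the end of the gene, and the closest annotated TSS, about 7.5 kb away, belongs to the pseudogene AMZ2P1. The bases up to 50 bp on either side of the middle summit are 76.2% G or C and hold GGAA 3 times but no FLI1 core. The distance alone does not assign the site to GNA13.

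Around ARHGEF1, the promoter of its neighbour RPS19 passed in all 3 libraries, with a -log10 q of 34.2, 17.1 and 21.0. The promoter of CD79A, which encodes a chain of the B-cell receptor, lies between RPS19 and ARHGEF1 and passed in OCI-Ly1 rep2 (5.39 and 3.99, for peaks centred 1765 and 32 bp from its TSS) and in VAL rep2 (3.74, at 129 bp). A further peak of VAL rep2 (3.07) was centred 5353 bp from the TSS of CD79A. A site downstream of ARHGEF1 also passed in both lines, with 3.5 and 7 reads in OCI-Ly1 rep2 (chr19:42444085-42445106) and 5.18 and 7 reads in VAL rep2 (chr19:42444477-42445649), and ARHGEF1 was the gene with the closest TSS, 11623 and 12091 bp from the centres. Near S1PR2 the promoter of DNMT1 passed in OCI-Ly1 rep2 (16.8) and VAL rep2 (12), and that of ICAM1 in VAL rep2 (8.13). Near CXCR5 the other passing peak of VAL rep2 (3.82) lay at the promoter of BCL9L.

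The same pathways hold 120 further genes in 7 lists, of which 32 (26.7%) had a passing promoter peak in at least 1 library, against 27.4% of all protein coding genes. By library these were 16 in OCI-Ly1 rep2 (19.0% of all protein coding genes passed), 1 in VAL rep1 (3.14%) and 28 in VAL rep2 (20.8%). Of the other chemokine receptors 0 of 19 passed, and 3 of 21 on a list of other receptors, mainly for sphingosine 1-phosphate, lysophosphatidic acid and nucleotides. Ligands and the enzymes and exporters that handle them passed in 5 of 16, G protein subunits in 7 of 19, regulators of receptor signalling and turnover in 5 of 17, and transcription factors known to act on these receptors in 4 of 10. The counts describe the lists, and no test was run between them. In both lines 12 of the 120 passed, against 12.6% of all protein coding genes.

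Of those 12 genes, 9 are given here by role. POU2AF1, the B-cell coactivator, was the one gene that passed in all 3 libraries, with a -log10 q of 20.6, 4.44 and 22.5 in OCI-Ly1 rep2, VAL rep1 and VAL rep2, and its partner POU2F2 had 3.99, 0.722 and 4.33. Of the G protein subunits, GNAI3 had 12, 1.91 and 10.9, GNB2 had 15.7, 0.495 and 7.21, and GNAI2, through which chemokine receptors signal, had 5.62, 0.0 and 8.8. The receptor kinase genes GRK6 and GRK2 had 6.08, 0.969 and 14.3, and 4.45, 0.382 and 6.15. SGPL1, the lyase that breaks down sphingosine 1-phosphate, had 9.03, 1.77 and 5.18, and LTC4S, which conjugates glutathione to a leukotriene precursor, had 3.99, 0.0 and 3.27.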

How the data were processed

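FLI1 ChIP-Seq peak lists of OCI-Ly1 rep2, VAL rep1 and VAL rep2 were used. Per the methods, the authors mapped reads to GRCh37 with bowtie2, filtered them with SAMtools and called peaks with HOMER, while the submitters' processing notes name CASAVA 1.4, BWA and hg19. The deposited lists have the 10-column form that MACS2 writes; their caller settings and control are not given in the sources used here. The deposited fold enrichment is a ratio over local background, the deposited -log10 p and -log10 q (an adjusted p-value) refer to the summit, and the deposited score was not used. Reads were inferred from fold = (reads + 1) / (background + 1) and a Poisson p. Promoters, genes and motifs came from GENCODE release 44 and the reference sequence on GRCh37, and the Y copy of P2RY8 was read from X. Duplicate removal could not be checked from the lists. Unique mapping would remove reads of duplicated regions such as that of P2RY8, yet such reads were kept. In the pseudoautosomal region of P2RY8, OCI-Ly1 rep2 listed 1360 peaks on X and 1382 on Y. VAL rep1 listed 485 and 512 there, and VAL rep2 listed 1254 and 1287.

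Named were all 10 genes, every gene of the lists passing in at least 2 libraries (those of 1 list are not reported here), and the 2 genes ranked most like the member with the highest mean rank. Genes and lists were chosen with earlier results of these data known. Shares have exact Clopper-Pearson 95% intervals for counting only. No test was run, since no condition was varied. The alternatives covered the q-value threshold, a fold minimum of 4, an equal number of top peaks per library, the promoter definition, the motif, the summit distance, the ranking and each library left out. On simulated data, reads were recovered for 1877 of 1877 peaks, planted promoter peaks for 50 of 50 genes and 0 of 150 other genes were called. The scripts ran under python 3.11.15 with pysam 0.24.0, pandas 2.3.3, matplotlib 3.10.9, scipy 1.17.1 and numpy 2.4.6.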

Additional observations from a re-analysis of the deposited data

How the results depend on the processing

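The count of 4 genes with a passing promoter peak became 1 at a -log10 q of 5 and 7 with an equal number of top peaks per library, which ties raised to 31166, 19797 and 18098 peaks. Leaving out 1 library at a time gave 0 to 4, with 0 without VAL replicate 2. It was 3 to 5 under the other settings, and 3 where a peak counted only for the gene with the closest TSS, since the S1PR2 peak then fell to DNMT1. The 3 genes with a passing peak inside became 6 at a -log10 q of 2 and 1 at 5. They became 2 with the summit in place of the centre, and 1 to 3 with a library left out, 1 without VAL replicate 2. The 32 genes of the 7 lists became 54 at a -log10 q of 2 and 18 at 5. With a library left out they became 16 to 32, 16 without VAL replicate 2. The shares of all protein coding genes with a passing peak at these changed settings are not given. The changed counts therefore cannot be set against a background and say nothing particular about these genes. The 2 genes with the FLI1 core near a best summit became 8 with GGAA and 0 with CCGGAAGT, and the 2 genes with summits together became 0 at 50 bp. With promoters of 1 kb the median percentile in VAL replicate 2 fell from 71.4 to 40.9, and GNA13 there had a -log10 q of 0.952. Of the 30 best values of the 10 genes, 29 kept their side of the passing value with promoters of 1 kb, and 30 with start sites of coding transcripts only or with the summit in place of the centre. No paired analysis was possible because no test was run and no condition was varied. Read totals were not used, and passing took at least 6, 8 and 6 reads in the 3 libraries in the order of the report, whose commonest backgrounds were 0.283, 0.526 and 0.278 reads.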
